A study of Mus musculus with 25 samples.

Results

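The genes compared here are those that lay inside H3K27me3 peaks in mouse neural progenitor cells (NPC) and outside them in both of 2 fibroblast lines, or the other way round. For each of 18635 protein-coding genes on chromosomes 1 to 19 without 7, the cover was taken as the percent of the gene record plus 2 kb at each end that lay inside peaks. A gene was placed on the NPC side where the NPC list covered 50% or more of this window and both fibroblast lists 0%, and on the fibroblast (MEF) side where each fibroblast list covered 50% or more and the NPC list 0%. By this rule 66 genes lay on the NPC side and 353 on the MEF side, 419 in all.

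H3K27me3 is laid down by Polycomb repressive complex 2, whose catalytic subunit is EZH2 or EZH1, and is typical of genes that are kept silent. In differentiated cells the mark is known for its broad domains over the master regulators of other lineages, among them homeobox, Sox and T-box factors. In neural progenitors, and in fibroblasts of mesodermal origin, the regulators of the cell's own lineage are usually free of it.

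The NPC were wild type, derived from embryonic stem cells and grown with EGF and FGF2, and gave 6 CUT&RUN libraries in 3 conditions. They were untreated, treated with 2 uM UNC1999 and 4 uM A395 (inhibitors of PRC2), or sampled after these were washed out. The fibroblasts were c-myc-immortalized mouse embryonic lines A and B, which gave 12 ChIP-seq libraries. Line A was wild type, Ezh2 -/- or Ezh2 -/- with retroviral pMSCV-Ezh2, and line B was wild type, Ezh2 -/- (reversible) or with endogenous Ezh2 rescue, with 2 libraries in each group. Immortalized lines need not stand for primary fibroblasts, and the labels do not say whether a line is 1 clone or whether libraries came from separate cultures.

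NPC, line A and line B had 1 peak list each, with peak positions and no heights, so every difference below is between 3 lists and has no replicate check and no test. The names of the MEF lists join labels of the same line and do not state which genotypes they hold, and that of the NPC list gives no treatment. How far each library contributed to the calls is, in the sources used here, not given. Depth is unknown. A window at 0% held no called peak, which does not show that the mark was absent, and cell type and assay cannot be told apart.

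NPC peaks and fibroblast peaks overlapped over a minority of their bases. NPC peaks covered 115.3 Mb, the bases common to both MEF lists came to 124.5 Mb, and 30.2 Mb lay in both. The shared bases were 26.2% of the NPC bases and 24.3% of the common MEF bases. Another 55.4 Mb of NPC bases (48.0%) lay in neither MEF list, and 94.3 Mb of the common MEF bases (75.7%) lay outside the NPC list.

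Among genes, cover of 50% or more was found for 676 in NPC (3.63% of all genes examined) and for 2029 and 2013 in lines A and B (10.9% and 10.8%). Of these, 1248 were covered to that extent in both MEF lists (6.7%). Any cover at all was found for 25.2% of genes in NPC, 33.6% in line A and 35.1% in line B. Of the 676 NPC genes, 288 (42.6%, and 1.55% of all genes) were also covered by 50% or more in both MEF lists, and 66 (9.76%) were at 0% in both. Of the 1248 genes of both MEF lists, 353 (28.3%) were at 0% in NPC and 607 (48.6%) had some NPC cover below 50%. The NPC side thus held 0.354% of all genes and the MEF side 1.89%, and since the rule used these lists the shares are a description of the lists. They sit along the axes of the plot of NPC cover against the lower MEF cover.

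**Figure D1:**
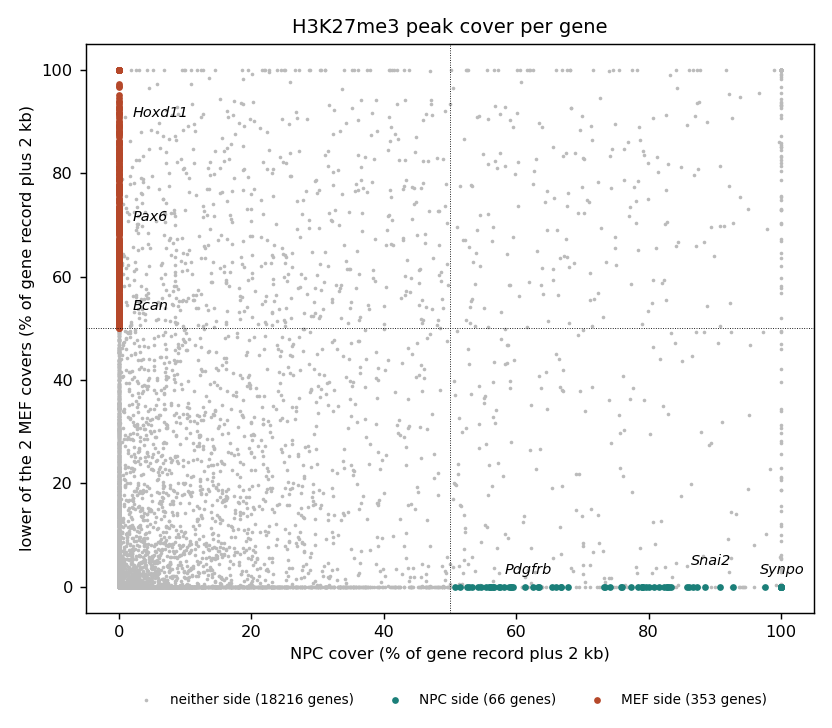
Each point is a gene, with the percent of its record plus 2 kb covered by NPC peaks on the x axis and the lower of its 2 MEF covers on the y axis, and dotted lines at 50%. The 66 genes of the NPC side and the 353 of the MEF side lie on the axes by the rule, and gray points on the x axis beyond 50% had cover in 1 MEF list.

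The number of genes on each side depended on how the lists were matched. When only the widest peaks of lines A and B were kept, down to the number of bases in the NPC list, the NPC side held 237 genes and the MEF side 141. This left out line A peaks under 8409 bp and line B peaks under 7235 bp, while all NPC peaks stayed. Leaving out MEF peaks alone can only enlarge the NPC side and shrink the MEF side, so the direction was fixed by the setting. With chromosome 7 included the NPC side rose to 114 genes, with 358 on the MEF side. Asking only for 0% in the bases common to both lines gave 184 genes on the NPC side. Limits of 30% and 70% gave 125 and 37 genes on the NPC side and 635 and 180 on the MEF side.

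The labelled cell types were checked against the cover of 12 neural progenitor markers and 14 fibroblast markers, since active marker genes usually lack the mark. Of the 12 neural markers 9 were at 0% in NPC, where any cover was found for 25.2% of all genes. That count is near the share of all genes, so it says little about the NPC label. Of the fibroblast markers 13 were at 0% in each of the 2 lines, and the highest cover was 4.29% (Col1a1, line A). The lines differed at some neural markers, with Sox2 at 0% in line A and 100% in line B, Nes (nestin) at 1.59% and 83.8%, and Fabp7 at 64.6% and 2.86%. Among markers of other cells, 13 in all, none reached 50% in NPC, where 3.63% of all genes did, so this says little about other cells. Some reached 50% in a line. These were Rbfox3 (65.0% in line A, 56.4% in line B) and Esrrb (62.4% in line B). Snap25, Kdr and Ptprc were at 67.5%, 78.2% and 71.8% in line A.

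Of the gene lists, that of neural progenitor genes had the largest share on the MEF side. Of 35 neural progenitor genes examined, 12 (34.3%) lay on the MEF side and 0 on the NPC side. Their median cover was 0% in NPC, 53.2% in line A and 78.3% in line B, where the median over all genes examined was 0% in each list. A further 5 genes of the list were at 0% in NPC and at 50% or more in 1 line only, as were 3.54% of all genes, and 2 were covered by 50% or more in every list. In NPC 11 of the 35 genes had some cover and 3 had 50% or more, where 25.2% and 3.63% of all genes did. The list was thus not freer of NPC peaks than all genes were.

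Pax6, the paired-box factor of eye and cortical progenitors (chromosome 2, 105668896 to 105698410 in mm10), was covered over 0% in NPC, 71.5% in line A and 78.6% in line B. In line B a single peak of the window spanned 26.4 kb of it, and both lines held the start of the gene inside a peak. Olig2 and Olig1, neighbouring factor genes of the oligodendrocyte lineage on chromosome 16, were each covered over 0%, 100% and 100%. Sox1, an early marker of the neural plate, was at 0%, 84.1% and 100%, and Sox21, a related factor of neural progenitors, at 0%, 64.9% and 100%. For these 5 genes the MEF cover was thus above 60% in both lines and at least as high in line B as in line A.

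NPC cover was 0% at factors of regional identity as well, with 60% or more in each line. Otx2, of the forebrain and midbrain, and Pou3f2, a POU factor of neural precursors, were at 0% in NPC and 100% in both lines, and Pou3f3 at 0%, 66.0% and 100%. Nkx2-2, of the ventral neural tube, was at 0%, 93.3% and 74.5%. Nr2e1, a nuclear receptor that maintains neural stem cells, was at 0%, 89.1% and 100%. The remaining 2 genes are not regulators, since Ncan and Bcan encode the brain matrix proteoglycans neurocan and brevican. Ncan was at 0%, 53.2% and 73.1%, and Bcan at 0%, 54.4% and 78.3%, which were the lowest line A values of the 12 genes. The heat map of the neural and mesenchymal lists shows these genes beside the members that did not meet the rule.

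**Figure D2:**
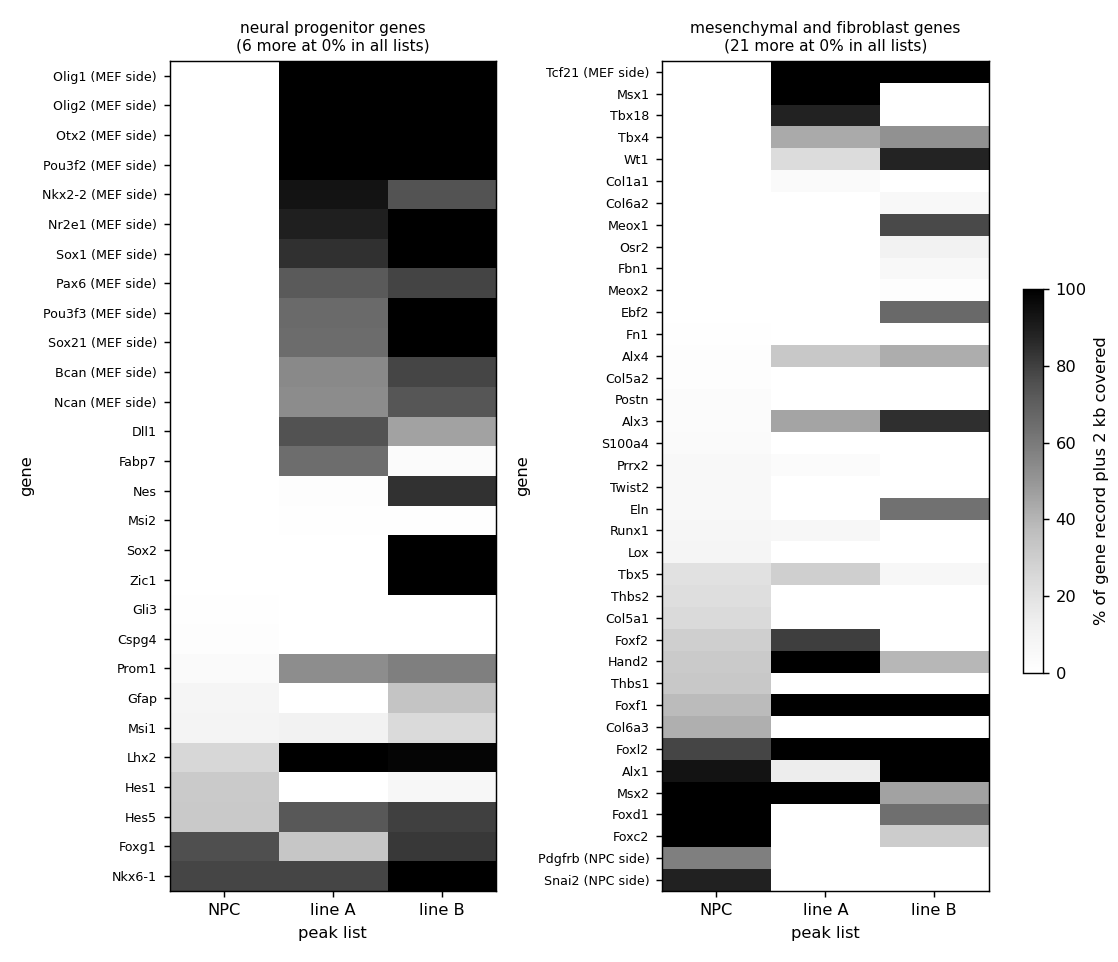
Rows are genes of the neural progenitor list (left) and of the mesenchymal and fibroblast list (right) that are reported here and had cover in at least 1 list, columns are the 3 peak lists, and darker gray is more of the gene record plus 2 kb covered, from 0 to 100%. The 12 neural genes of the MEF side are white in NPC and dark in both lines, and Pdgfrb and Snai2 at the bottom right show the reverse.

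The 250 bases before the start of Pax6 and of Olig2 lay outside NPC peaks and wholly inside peaks of both lines. They lie in the windows of the rule, so all but the MEF cover at Pax6 followed from the window values. They are shown as 2 examples, chosen with their values in view, that need not stand for the other genes of the side. The sequences are from RefSeq in assembly GRCm38.p6, 5′ to 3′ on the strand of the gene, with each CG (read alike on both strands) in capitals. Pax6 is at chr2:105668646-105668895 and Olig2 at chr16:91225300-91225549, both on the plus strand.
Pax6: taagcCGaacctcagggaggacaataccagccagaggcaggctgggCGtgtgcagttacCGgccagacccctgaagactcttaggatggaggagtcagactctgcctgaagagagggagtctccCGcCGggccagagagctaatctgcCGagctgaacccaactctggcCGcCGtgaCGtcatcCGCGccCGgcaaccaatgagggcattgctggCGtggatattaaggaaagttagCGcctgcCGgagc
Olig2: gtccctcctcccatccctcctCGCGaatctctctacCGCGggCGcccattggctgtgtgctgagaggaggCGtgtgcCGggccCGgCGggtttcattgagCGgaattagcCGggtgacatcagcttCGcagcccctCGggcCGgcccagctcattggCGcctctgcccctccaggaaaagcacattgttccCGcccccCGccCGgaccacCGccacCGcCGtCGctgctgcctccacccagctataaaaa
The Pax6 stretch held 15 CG and the Olig2 stretch 22. Over 14715 genes with such an entry the median was 11, and 93.6% held at least 1.

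Factors of neurons and of other germ layers were the next groups on the MEF side. Of 51 proneural and neuronal transcription factor genes, 9 (17.6%) lay there, and 15 more were covered by 50% or more in all 3 lists. Lmx1b, a LIM homeobox factor of dopamine and serotonin neurons, was at 0% in NPC, 87.8% in line A and 78.8% in line B. Prdm8 was at 0%, 71.7% and 92.3%, and Tlx1 and Barhl2, homeobox factors of neuronal subtypes, at 0%, 100% and 100%. Evx1 and Tlx3 of spinal interneurons, Eomes and Neurod6 were also among them. Neurod6, of cortical neurons, had the lowest cover of the 9 in line B (65.0% in line A, 55.2% in line B).

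Of 28 mesoderm and muscle factor genes 5 lay on the MEF side (17.9%). Tcf15, of somites, was at 0% in NPC and 100% in both lines, and T (brachyury), of the primitive streak, at 0%, 82.0% and 92.2%. Tbx1, of the pharyngeal region, was at 0%, 56.7% and 100%, and Hand1, of heart and placenta, at 0%, 75.3% and 53.0%. The fifth was Eomes, named above. Of 20 sarcomere genes 2 lay there, the neighbouring cardiac myosin genes Myh6 (56.5% and 73.8%) and Myh7 (89.0% and 90.1%).

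Of 29 endoderm factor and effector genes 4 lay on the MEF side (13.8%) and 1, Cdx1, on the NPC side. Foxa2, a forkhead factor of the gut, was at 0% in NPC and 100% in both lines, and Foxa1 at 0%, 75.8% and 100%. Onecut1, of liver and pancreas, was at 0%, 66.7% and 97.5%. Afp, the fetal serum protein, was at 0%, 91.7% and 81.5%. Foxa2 lay in a region that NPC peaks reached, with 30.3% of its flanks from 2 to 50 kb covered in NPC, while the flanks of Foxa1 were at 0%.

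By gene family, developmental transcription factors had a larger share on the MEF side than all genes had (1.89%). Their share on the NPC side was near that of all genes (0.354%). The families of such factors and the neuronal factor list together had 269 genes examined, of which 40 (14.9%) lay on the MEF side and 1 (0.372%), Foxl1, on the NPC side. These 40 genes were 11.3% of the MEF side. Of 17 Sox genes 6 lay there, which were Sox1, Sox7, Sox8, Sox10, Sox13 and Sox21. Sox10, of neural crest and glia, was at 0% in NPC and at 65.2% and 72.4% in lines A and B, and Sox8 at 0%, 65.6% and 100%. Of 12 Nkx genes 3 lay there (Nkx2-2, Nkx3-2 and Nkx6-3) and 6 were covered by 50% or more in all 3 lists. Of 14 T-box genes 3 lay there, and of 39 forkhead genes 4.

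Hox genes, which set position along the body axis, made up 9 of the 40. They were Hoxb1, Hoxb5, Hoxb6, Hoxb7, Hoxb8 and Hoxb9 on chromosome 11 and Hoxd10, Hoxd11 and Hoxd12 on chromosome 2, out of 39 examined. Hoxd11 was at 0% in NPC and at 91.6% and 100% in lines A and B, and Hoxd10 at 0%, 84.4% and 97.4%. The 3 Hoxd genes lay within 20.1 kb, of which 0% was covered in NPC, 88.4% in line A and 98.4% in line B. The Hoxb genes were not isolated either, since they joined the T-cell adaptor gene Skap1 in 1 locus of 488.3 kb with 83.0% and 84.2% covered in lines A and B and 0.355% in NPC. Another 8 Hox genes were at 0% in NPC and at 50% or more in 1 line only.

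Of 34 neuronal effector genes 1 (2.94%, Syn2) lay on the MEF side, where 1.89% of all genes lay. Another 7 were covered by 50% or more in all 3 lists. Of 33 blood and immune genes 3 (9.09%) lay there. By covered length the side was led by long genes, whose order reflects gene length as well as cover. The most covered was Rims2, a scaffold of the presynaptic active zone (chromosome 15, 39198286 to 39684372), with 0 kb in NPC, 341.0 kb in line A (69.6%) and 368.8 kb in line B (75.3%). Skap1 followed with 273.4 kb and 234.5 kb, and Zdhhc14, a palmitoyltransferase gene, with 221.0 kb and 167.6 kb. Other synaptic genes among the 20 most covered were Nrxn2, a presynaptic adhesion gene (81.2% and 72.7%), and Syn2, a synaptic vesicle gene (64.6% and 56.2%). The protein kinase C gene Prkcq, of T-cell signalling, was at 0%, 87.5% and 97.2%, and its relative Prkch at 0%, 58.0% and 53.1%.

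Potassium channel genes recurred, with 6 of 82 examined on the MEF side (7.32%) and 0 on the NPC side. Kcnd3, an A-type channel, was at 0% in NPC, 53.5% in line A and 85.0% in line B. Kcnk13, a background potassium channel, was at 0%, 73.3% and 77.5%. Kcnj10, the inward rectifier of glia, was at 0%, 72.7% and 76.3%. Kcnk1 and Kcng1 were also members. The basement membrane collagen gene Col4a1 was the only 1 of 42 collagen genes on this side, at 0%, 66.3% and 50.1%, just inside the limit in line B.

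Several tandem gene clusters lay on the MEF side as blocks, and were singled out after their values were seen. Of 8 Gimap genes, which encode GTPases of lymphocytes, 7 lay on this side, in a locus of 262.0 kb on chromosome 6 with 0.280% covered in NPC, 53.5% in line A and 75.8% in line B. Of 14 interferon alpha genes 8 lay there. The main interferon locus on chromosome 4 held 7 members of the side over 126.1 kb, with 0%, 70.7% and 85.4% covered in the same order. These were Pramel32 and otherwise interferon alpha genes. Of 22 genes of the Wfdc protease inhibitor cluster on chromosome 2, 8 lay there, and 7 of them formed a locus of 122.9 kb with 73.3% and 43.7% covered in lines A and B. The cytokine genes Il10, Il19 and Il20 lay side by side on chromosome 1 in 118.0 kb with 2.95% covered in NPC, 69.7% in line A and 83.5% in line B. In all, 6 of 70 interleukin and receptor genes were on this side. Genes of a cluster share peaks and are not separate observations.

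The share of each gene list on either side is shown in the bar chart of list shares.

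**Figure D3:**
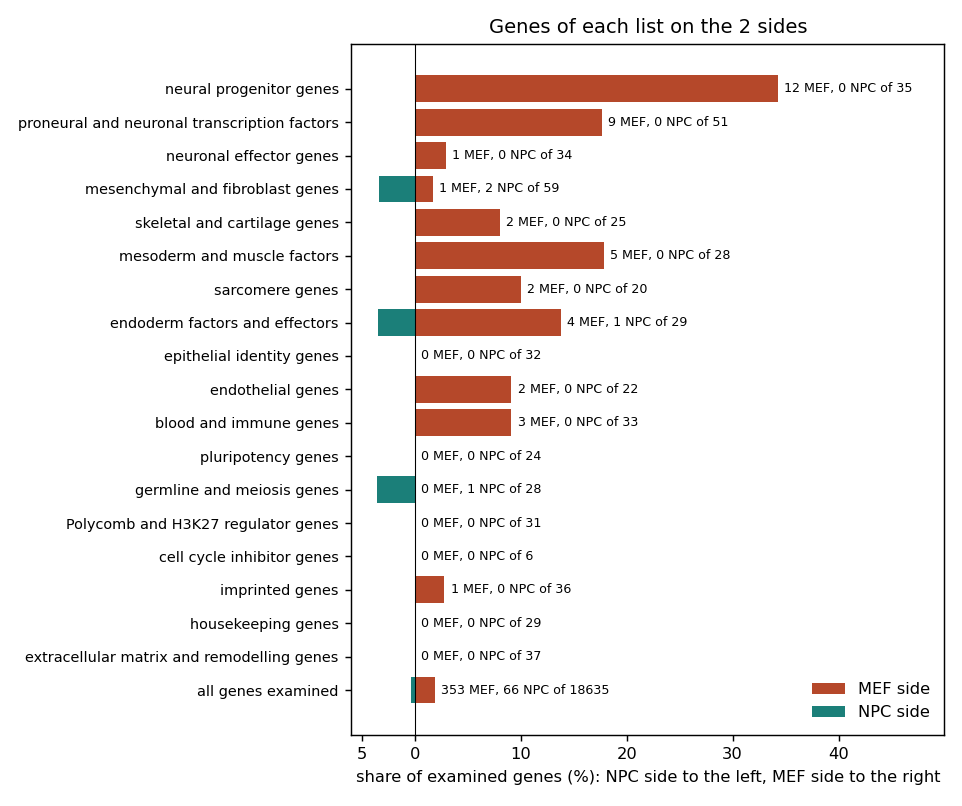
Bars give the percent of the examined genes of each list on the MEF side (to the right) and on the NPC side (to the left), with the counts printed beside them and all 18635 genes in the bottom row. The neural progenitor list stands at 34.3% on the MEF side, and lists of housekeeping, pluripotency and matrix genes have no bar.

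The mesenchymal list had members on both sides. Of 59 mesenchymal and fibroblast genes examined, 2 (3.39%) lay on the NPC side and 1, Tcf21, on the MEF side. Snai2, a zinc finger factor of epithelial to mesenchymal transition (chromosome 16, 14705852 to 14709395), was covered over 88.5% in NPC by a single peak and 0% in both lines. Pdgfrb, the platelet-derived growth factor receptor beta gene of pericytes and fibroblasts, was at 58.2%, 0% and 0%. Tcf21, a factor of visceral mesenchyme, was at 0% in NPC and 100% in both lines. Without a 50% limit, 11 of the 59 genes (18.6%) had some NPC cover and 0% in both lines, against 4.37% of all genes, among them Col6a3 (41.8%), Thbs1 (32.2%), Col5a1 (24.1%) and Thbs2 (22.0%). These 4 genes encode matrix proteins of connective tissue. In the other direction 4 of the 59 (6.78%) had some cover in both lines and 0% in NPC, against 11.3% of all genes. Cover of 0% in NPC and of 50% or more in 1 line only was found for 5 (8.47%), against 3.54% of all genes. Cover of 50% or more was found for 7 in NPC, 8 in line A and 11 in line B. Of 37 further matrix and remodelling genes 7 (18.9%) were likewise covered only in NPC, but none lay on either side.

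The most covered genes of the NPC side came from several functions. Kif5c, a neuronal kinesin gene (chromosome 2, 49619286 to 49774778), led with 101.1 kb or 63.4% in NPC and 0% in both lines. Synpo, of the actin-associated protein synaptopodin, followed with 70.2 kb, its whole window, in 1 peak. Sycp2, a synaptonemal complex gene of meiosis, had 64.9 kb (97.6%), and Slc6a6, the taurine transporter gene, 62.9 kb (79.7%). P4ha2, a subunit gene of collagen prolyl hydroxylase, and Atoh8, a basic helix-loop-helix factor gene, were each covered over 100% in NPC and 0% in both lines.

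Single genes of secreted signals and of receptors were also found there, and they need not stand for their families. Il6, the interleukin 6 gene, Csf2, the gene of a myeloid growth factor, and Edn2, an endothelin gene, were each covered over 100% in NPC and 0% in both lines. Ackr3, a scavenger receptor gene for a chemokine, was at 85.8%, Mtnr1b, a melatonin receptor gene, at 100% and Htr1b, a serotonin receptor gene, at 90.8%. Il6 was the only 1 of 70 interleukin and receptor genes on this side (1.43%), and 6 lay on the MEF side (8.57%). Htr1b was the only 1 of 49 monoamine and acetylcholine receptor genes here (2.04%), with 3 on the MEF side (6.12%). Of 57 chemokine and receptor genes, not counting Ackr3, none lay on either side. Ankrd1, a gene of stretched muscle, was at 77.4%, Prelp, a matrix proteoglycan gene, at 54.3%, and the pro-apoptotic gene Bmf at 80.1%. Foxl1, a factor of gut mesenchyme, was at 67.8%.

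The 250 bases before the starts of Il6 and Atoh8 lay wholly inside NPC peaks and outside peaks of both lines. This was fixed by the choice of genes, whose whole windows were covered in NPC and at 0% in both lines. The stretches are shown as the counterpart of Pax6 and Olig2. Il6 is at chr5:30012864-30013113 on the plus strand and Atoh8 at chr6:72235578-72235827 on the minus strand, from RefSeq in GRCm38.p6, 5′ to 3′ on the strand of the gene with each CG in capitals.
Il6: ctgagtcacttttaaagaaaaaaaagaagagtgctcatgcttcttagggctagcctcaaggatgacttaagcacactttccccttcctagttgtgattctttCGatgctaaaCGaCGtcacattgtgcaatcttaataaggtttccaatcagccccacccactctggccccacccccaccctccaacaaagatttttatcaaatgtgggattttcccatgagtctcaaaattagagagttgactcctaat
Atoh8: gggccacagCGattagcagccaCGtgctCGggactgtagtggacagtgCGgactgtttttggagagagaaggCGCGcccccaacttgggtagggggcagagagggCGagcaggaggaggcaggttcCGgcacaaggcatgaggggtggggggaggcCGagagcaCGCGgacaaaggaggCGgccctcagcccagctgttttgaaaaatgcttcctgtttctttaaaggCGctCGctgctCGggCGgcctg
The Il6 stretch held 3 CG and the Atoh8 stretch 16. A comparison of the sides by promoter composition was void, because only 75.8% of the NPC side and 79.04% of the MEF side had an entry, under the 80% needed.

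Most NPC-side genes stood alone. Members less than 100 kb apart were joined into loci, which gave 56 loci for 66 genes, of which 51 held a single member. The locus with the most members, 5, lay on chromosome 18 (60911991 to 61085067, 173.1 kb) with Arsi, Slc6a7, Cdx1, Gm52351 and Pdgfrb, and 75.3% of it was covered in NPC, 0.620% in line A and 0% in line B. Among them stands Camk2a, the gene of a calcium-dependent kinase of synapses, with 95.9% covered in NPC and 1.64% in line A, which kept it off the side. Chromosome 18 held 10 of the 66 genes, 1.96% of its 511 genes examined. The maps of 6 loci show these domains against their surroundings.

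**Figure D4:**
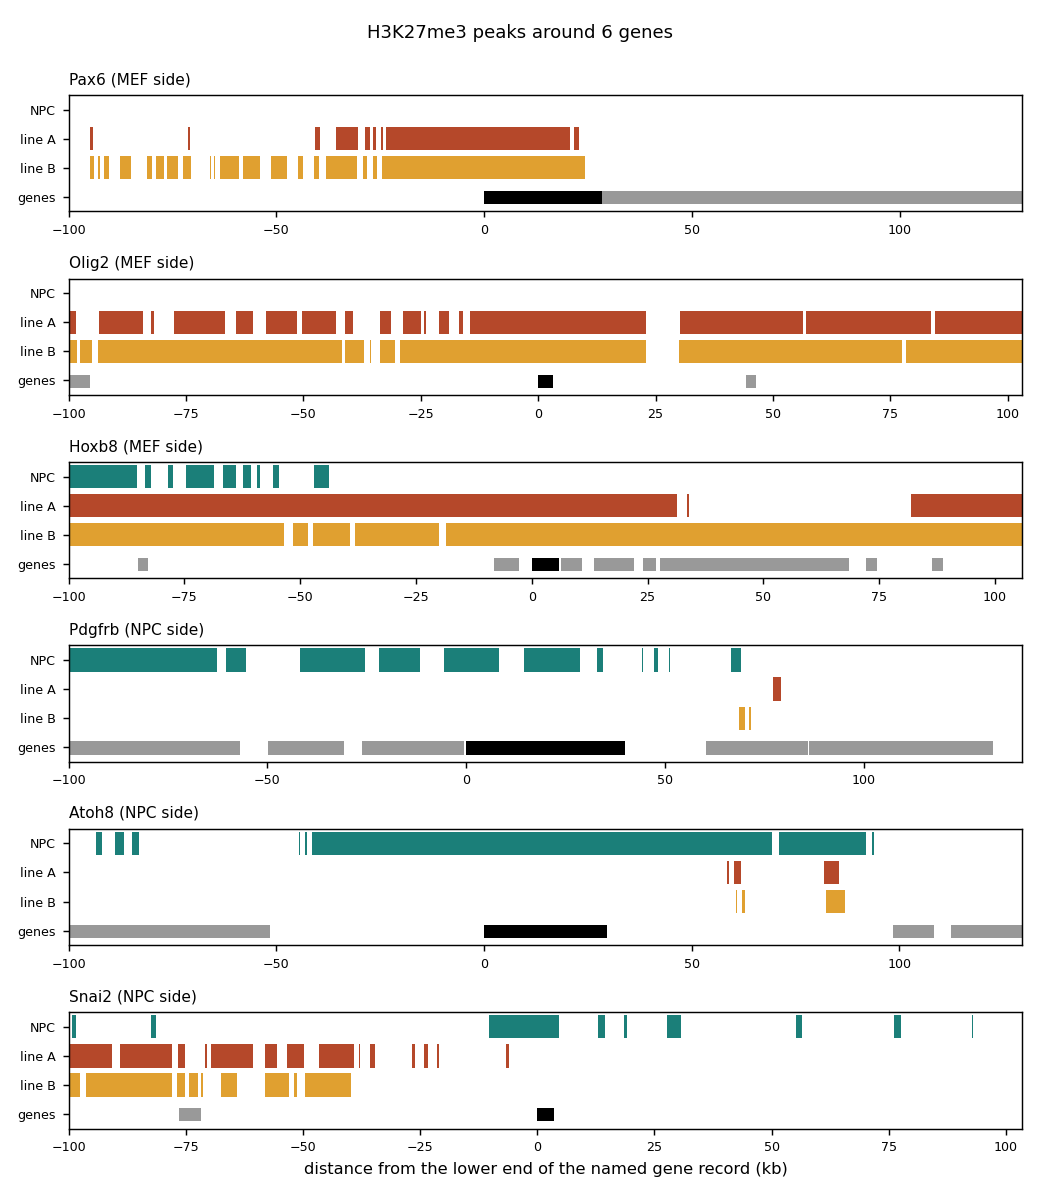
Peaks of the NPC, line A and line B lists (bars, 3 upper tracks) and protein-coding gene records (bottom track, the named gene in black and others in gray) are drawn against the distance in kb from the lower end of the named gene record. NPC peaks are absent over Pax6, Olig2 and Hoxb8 where both lines have broad blocks, and cover Pdgfrb, Atoh8 and Snai2 where both lines have none.

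The second cluster of the NPC side was that of the milk casein genes on chromosome 5, and it too was singled out after its values were seen. Of 23 genes of the casein and secretory calcium-binding cluster, 7 (30.4%) lay on the NPC side and 0 on the MEF side. Csn1s2a was covered over 92.7% in NPC, Csn2 over 86.6% and Csn1s1 over 78.4%, each with 0% in both lines. The salivary gene Smr3a was at 79.1%, and the tooth enamel gene Amtn at 66.8%. Csn1s1, Csn2 and Csn1s2a lay with Sult1d1 in a locus of 234.1 kb of which NPC peaks covered 58.3% and the MEF lists 0%.

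Members of chemosensory families lay on both sides. Of 863 olfactory receptor genes 4 (0.463%) lay on the NPC side and 14 (1.62%) on the MEF side, shares near those of all genes (0.354% and 1.89%). The NPC side also held 1 of 174 vomeronasal receptor genes, Vmn1r24.

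Some lists had no gene on either side. All 29 housekeeping genes examined were at 0% in all 3 lists, where 54% of all genes examined were. Of 31 Polycomb and H3K27 regulator genes none lay on either side and 15 were at 0% throughout. None of 24 pluripotency, 32 epithelial identity or 6 cell cycle inhibitor genes met the rule. Of all genes, 0.354% lay on the NPC side and 1.89% on the MEF side, so lists this small can have none without departing from all genes.

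Cover extended beyond the gene windows, which the rule did not use. The flanks from 2 to 50 kb beyond the record had a median NPC cover of 31.9% on the NPC side, with 1.13% in line A and 0.0698% in line B. On the MEF side the flanks had a median of 1.80% in NPC and of 45.7% and 44.3% in lines A and B. Over all genes the medians were 0.889%, 6.67% and 7.02%. Flanks adjoin the windows and one peak can span both. Single genes departed from this, as the plot of flank cover shows.

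**Figure D5:**
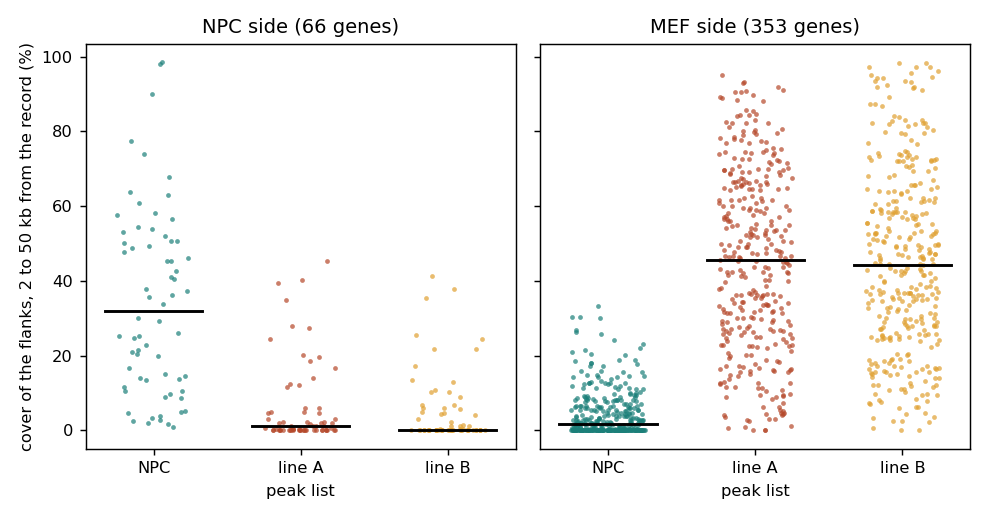
Each point is a gene of the NPC side (left, 66 genes) or the MEF side (right, 353 genes), with the percent of its flanks from 2 to 50 kb covered in each peak list on the y axis and the median as a bar. On the NPC side the NPC median is 31.9% and both MEF medians are near 0, and on the MEF side the line A and line B medians are 45.7% and 44.3%.

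Genes of both sides were shorter than most. The median record was 8.61 kb on the NPC side and 8.04 kb on the MEF side, against 18.6 kb over all genes. The 288 genes covered by 50% or more in all 3 lists had 7.85 kb. A short record reaches 50% with fewer covered bases, so the rule bears on length too. Among genes with a known strand, the start lay in an NPC peak for 40 of 50 on the NPC side, and in a peak for 225 (line A) and 241 (line B) of 279 on the MEF side. Over all genes with an entry the shares were 8.28%, 13.1% and 14.9%, and since the start lies in the window of the rule, the rule bears on these counts. The whole window was covered for 10 of the 66 NPC-side genes, and for 70 and 86 of the 353 MEF-side genes in lines A and B. The MEF side fell into 263 loci, of which 214 held a single gene and 49 held the other 139.

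Genes near the limits differed little across them. On the NPC side Gm33153 (50.7%), Olfr90 (51.5%) and Sult1d1 (52.6%) were just inside, and Serpina3n (49.7%), Afap1l2 (49.2%) and Skint8 (49.2%) just outside. On the MEF side Oxgr1 (50.02% in line B), Col4a1 and Prss51 (50.1% in line A) were just inside. Gm40035 and Spats2l (49.9% in line A) and Taar7d (49.9% in line B) were just outside. Dpysl5, with 62.3% and 80.5% in lines A and B, was kept off the MEF side by 0.513% in NPC.

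Of the 10 longest unbroken stretches of NPC bases without either MEF list, 6 overlapped a gene of either side, as did 5 of the 10 longest of common MEF bases without NPC peaks. The longest NPC stretch was 123.5 kb on chromosome 4 (120113048 to 120236497), over Edn2 and part of the zinc finger gene Hivep3. The next was 99.8 kb on chromosome 6 (72164738 to 72264557) around Atoh8, and the third, of 87.2 kb on chromosome 10, lay 576.9 kb from the nearest protein-coding record, that of Nedd1. The longest MEF stretch was 80.3 kb over Zswim5 on chromosome 4 (116837582 to 116917906). The next 2, of 73.2 and 71.7 kb, lay over Skap1, and the fourth, of 62.0 kb, over Unc13b, which is on neither side.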

How the data were processed

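The 3 deposited lists hold peak positions in mm10 in 3 columns, with no header, height or p value. Per the submitters' processing notes, the tools were MACS2 2.1.1.20160309, Bowtie2 2.2.9, deepTools, Picard and DESeq2, and dm6 stands beside mm10. Their roles are not stated there, and threshold, control and pooling are, in the sources used here, not given. Starts were read as 0-based and are printed 1-based.

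Gene records were those of a RefSeq table of GRCm38.p6, the assembly of mm10, without strand. Strand and starts came from RefSeq promoter entries, held for 14715 of 18635 genes. Chromosome 7 was left out by the rule. Cover was computed with Python 3.11.15, pandas 2.3.3 and numpy 2.4.6, and the steps were tested on simulated data. Of 608 symbols in 18 gene lists, 607 had a record and 539 were examined.

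Named genes were the 20 most covered of each side without predicted symbols, up to 4 per list or family and side, the markers, and genes at the limits. Further list members, clusters and the promoters shown were chosen with their values in view. The members and lists were chosen with earlier results of these data known. Alternatives changed the window, limit, peak widths, lines and chromosomes. The other 7 libraries (input, RNA polymerase II, H3K4me3 and H3K36me3) were not used here. Some list members are not reported here.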

Additional observations from a re-analysis of the deposited data

How the results depend on the processing

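The number of genes on a side moved by over 1.5 times under several settings, NPC side first and MEF side second, from 66 and 353. A limit of 30% gave 125 and 635, a limit of 70% gave 37 and 180, and the widest peaks up to equal bases gave 237 and 141. Line A alone gave 100 and 645, and line B alone 139 and 721. The region within 2 kb of the start in place of the whole record gave 205 and 615. Including chromosome 7 gave 114 on the NPC side, and 0% in the bases common to both lines, a setting added after seeing the data, gave 184. The other settings kept the NPC side between 50 and 93 and the MEF side between 277 and 512.

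The percent of NPC bases in both MEF lists moved from 26.2% to 25.5% with peaks of 1 kb or wider, 12.5% with the widest peaks, 30.6% with peaks under 3 kb apart joined, 42.2% with line A alone, 36.02% with line B alone and 23.5% with chromosome 7. The percent of common MEF bases in NPC moved from 24.3% to 23.9% with peaks of 1 kb or wider, 30.1% with the widest peaks, 18.6% with line A alone, 18.02% with line B alone and 25.2% with chromosome 7.

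Applied after seeing the data to 2 gene lists, the same settings gave between 8 and 15 neural progenitor genes on the MEF side, from 12. Mesenchymal genes on the NPC side moved from 2 to 4 with a limit of 30%, the widest peaks, line A alone or the common bases. They moved to 1 with a limit of 70% (Snai2) and with the start only (Col5a1, since Snai2 and Pdgfrb had no promoter entry). The cause was not tested where lists differ in width, and settings with 1 line use fewer lists by construction. No paired analysis was possible because NPC and each fibroblast line have 1 peak list, which carries no replicate number. Depth and signal heights were not used here, so weak marks below the peak threshold cannot be seen.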

Other observations

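MicroRNA genes were compared by the same rule, on hairpin records plus 2 kb at each end, after the gene results were seen. Of 838 hairpins on the same chromosomes, 6 (0.716%) lay on the NPC side and 19 (2.27%) on the MEF side. Mir205, a microRNA of epithelia on chromosome 1, was covered over 99.9% in NPC and 0% in both lines. Mir135a-2 was covered over 100% in NPC and lay inside the 87.2 kb stretch on chromosome 10 that is far from any protein-coding record. Mir3969 was also at 100% in NPC and lay within the locus of the casein genes.

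On the MEF side, Mir196a-1 of the Hoxb cluster and Mir208b inside the cardiac myosin gene Myh7 were each at 0% in NPC and 100% in both lines. Mir208b is expressed with its host gene in muscle. Mature sequences of these microRNAs from RefSeq are given 5′ to 3′, with the seed (bases 2 to 8) in capitals, because the seed sets which transcripts a microRNA pairs with.
mmu-miR-205-5p: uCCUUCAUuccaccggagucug
mmu-miR-135a-5p: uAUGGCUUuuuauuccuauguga
mmu-miR-196a-5p: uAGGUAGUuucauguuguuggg
mmu-miR-208b-3p: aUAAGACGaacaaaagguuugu
The 4 seeds differ from each other.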
